A study of Homo sapiens with 6 samples.

Results

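The integrated stress response and the unfolded protein response were examined through 39 genes in H1975 cells labelled YTHDC2 knockout or WT. The genes were chosen by symbol, with earlier results of these data known, and all 39 were found among the 16760 genes of the deposited table. H1975 is a human lung adenocarcinoma cell line, and YTHDC2 is an RNA helicase that binds m6A-modified RNA. RNA-seq compared 3 libraries of cells labelled YTHDC2 knockout with 3 libraries of cells labelled WT, to find the transcripts that depend on YTHDC2. Both groups were H1975 with no other treatment in the labels, the knockout was made with CRISPR, and whether its cells were 1 clone or a pool is not given in the sources used here. Nothing in the labels says that the libraries came from separate cultures, so the p-values measure the spread between these libraries, which may be technical. The libraries are bulk RNA, in which a change in every cell and a change in a share of the cells cannot be told apart.

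Expression was given as FPKM, which counts fragments relative to transcript length and sequencing depth. The libraries held 27201555 to 33824967 fragments, recovered from the steps of the FPKM values, and each of the 39 genes had 77 to 26026 fragments per library. The YTHDC2 transcript measured 7.82, 8.92 and 8.14 FPKM in knockout and 13.0, 17.1 and 201 FPKM in WT replicates 1 to 3. Its log2 fold change was -2.09 (standard error (SE) 1.17, limma FDR-adjusted p = 0.228). Leaving out WT replicate 3 gave -0.84 (limma FDR-adjusted p = 0.00223). Of 8 lung epithelial markers in the table, 4 averaged under 1 FPKM (EPCAM, KRT7, KRT19 and MUC1). The summed level of these markers was 173 to 180.2 FPKM in knockout and 144 to 157 FPKM in WT, most of it KRT8 and KRT18. The 7 fibroblast markers summed to 21.5 to 22.8 FPKM in knockout and 21.7 to 23.1 FPKM in WT, and the 4 immune markers to 2.01 to 2.66 FPKM and 3.13 to 3.51 FPKM. Single markers at low levels were called lower in knockout, KRT19 (0.0142 and 1.02 FPKM in knockout and WT, log2 fold change -3.28), EPCAM (0.246 and 0.818 FPKM, -1.41) and COL1A2 (0.200 and 1.31 FPKM, -2.20), with limma FDR-adjusted p = 2.82e-05, 6.79e-04 and 2.72e-04. The part of these differences in the results below was not tested.

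In the integrated stress response, kinases such as PERK (EIF2AK3) and GCN2 (EIF2AK4) phosphorylate the translation factor eIF2α. General translation then falls while that of the transcription factor ATF4 rises, and ATF4 switches on genes for amino acid synthesis, amino acid import and recovery from stress. The unfolded protein response starts from PERK, IRE1 and ATF6 in the membrane of the endoplasmic reticulum (ER), and through ATF6 and XBP1 it raises the chaperones that fold secreted proteins. DDIT4 (REDD1) restrains the growth kinase mTORC1 and is known to respond to ATF4 and to hypoxia, glucocorticoids and p53. Translation of ATF4, splicing of XBP1 and phosphorylation of eIF2α are not read by gene-level FPKM.

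The promoters of these genes hold known elements of both responses, which are shown for members that moved in opposite directions. RefSeq promoters of GRCh38.p14, 250 bases before to 50 after the gene start, matched 33 of the 39 genes. The C/EBP-ATF response element, searched as TGATGNAAN on both strands, was found in 8 of the 33 promoters (24.2%), against 4.45% of 27305 genes. A match in any listed promoter of a gene counted. The SLC3A2, SLC1A5, CEBPG and ASNS windows lie inside the GENCODE spans of these genes. The SLC3A2 and SLC1A5 spans are chr11:62856102-62888875, plus strand, and chr19:46774883-46788594, minus strand. Those of CEBPG and ASNS are chr19:33373330-33382686, plus strand, and chr7:97852118-97872542, minus strand. These matches belong to starts within the gene, nearer the outer start in CEBPG and ASNS than in SLC3A2 and SLC1A5. In these windows capitals mark the match of the element, and in HERPUD1 and SLC3A2 the match is on the opposite strand.
ASNS, chr7:97872448-97872496, minus strand: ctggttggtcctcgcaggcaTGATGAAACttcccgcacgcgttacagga
SLC1A5, chr19:46784883-46784931, minus strand: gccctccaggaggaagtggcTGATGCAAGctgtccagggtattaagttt
HERPUD1, chr16:56931945-56931993, plus strand: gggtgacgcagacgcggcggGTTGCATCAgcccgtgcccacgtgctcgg
CEBPG, chr19:33374051-33374099, plus strand: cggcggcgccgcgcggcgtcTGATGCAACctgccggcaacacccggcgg
SLC3A2, chr11:62881715-62881748, plus strand: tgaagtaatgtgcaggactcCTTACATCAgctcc
The ER stress response element, CCAAT and CCACG separated by 9 bases, was found in 2 of the 33 promoters (6.06%), against 0.0916% of the 27305 genes, and capitals mark it from CCAAT to CCACG.
HSPA5, chr9:125241371-125241429, minus strand: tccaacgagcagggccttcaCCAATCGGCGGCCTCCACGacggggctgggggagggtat
XBP1, chr22:28800583-28800641, minus strand: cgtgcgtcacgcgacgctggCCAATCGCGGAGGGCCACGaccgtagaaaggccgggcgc
The unfolded protein response element TGACGTGG was in 0 of the 33 promoters, against 0.927% of all. The genes were listed as known targets of these pathways, so these shares are not independent of the choice of genes. Of the 8 genes with a C/EBP-ATF match, ASNS, ATF3, HERPUD1, SLC1A5 and SLC7A1 were higher in knockout, CEBPG and SLC3A2 were lower, and CHAC1 did not pass the test. ATF3, SLC7A1 and CEBPG passed in 11, 10 and 8 of the 16 alternative settings, and ASNS, HERPUD1, SLC1A5 and SLC3A2 in all. Both genes with an ER stress element, HSPA5 and XBP1, were lower. Neither passed with median scaling, and XBP1 had a log2 fold change of 0.08 after GC correction. Over all genes tested, 16.6% were higher and 26.2% were lower, and a tie between element and direction was not tested.

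Of the 39 genes, 16 were higher and 10 were lower in YTHDC2 knockout at a limma FDR-adjusted p under 0.05, and 13 did not pass. The background over all 15441 genes tested was 16.6% higher and 26.2% lower. The 39 genes were chosen with earlier results of these data known, so their shares are not independent of that choice. DDIT4 was the 1 gene called, that is also past an absolute log2 fold change of 1, against 0.732% of all genes called higher. The lowest of the 39 log2 fold changes was -0.63, so 0 were called lower with limma or limma voom, at an adjusted or unadjusted p, against 1.99% of all genes. Every knockout library was above every WT library for 19 of the genes (20.7% of all genes) and below for 9 (33.1% of all genes). The median log2 fold change was 0.12, beside -0.09 over all genes tested. With each library's median set equal, the median of all genes moved to 0.04 and the split of the 39 genes to 21 higher and 6 lower. With FPKM rescaled to a common total, the median of all genes was -0.14 and the split was 11 higher and 12 lower. Under these and 14 other settings, 14 of the 26 genes that passed did so in the same direction each time, and none passed in the opposite direction. These were ASNS, PHGDH, SHMT2, PCK2, CTH, SLC1A5, STC2, EIF4EBP1, HERPUD1 and DDIT4, higher, and SLC3A2, PPP1R15A, EIF2AK3 and EIF2AK4, lower.

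**Figure D1:**
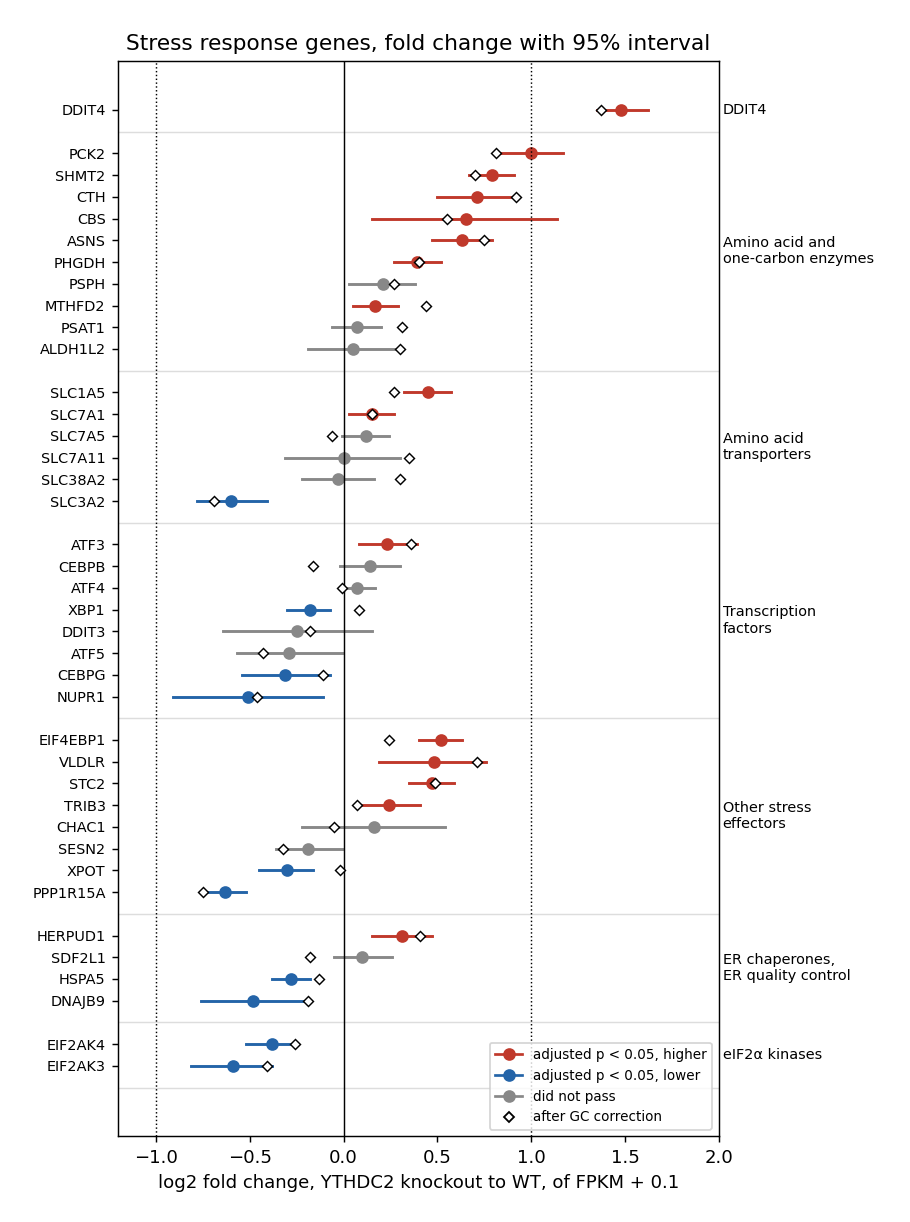
Log2 fold change of FPKM + 0.1, YTHDC2 knockout to WT, of the 39 genes by role. Points and bars are the limma estimate and its 95% interval, red for higher and blue for lower at an adjusted p under 0.05, gray for genes that did not pass, open diamonds the estimate after GC correction, and dotted lines a log2 fold change of -1 and 1. DDIT4 lies at 1.48, PCK2 at 1.00, and the lowest gene, PPP1R15A, at -0.63.

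DDIT4 was the gene of this set that changed most. It lies on chromosome 10 of GRCh38 (72273920 to 72276036, plus strand, GENCODE). DDIT4 measured 301, 266 and 289.7 FPKM in the knockout libraries and 102, 96.5 and 108 FPKM in the WT libraries. All knockout libraries were above all WT libraries. The means were 286 ± 17.8 and 102 ± 5.82 FPKM (SD, n = 3), a ratio of 2.79. The log2 fold change was 1.48 (SE 0.060, limma FDR-adjusted p = 5.05e-06). An exact two-sided permutation test of the FPKM values gave p = 0.1, the smallest that 3 libraries against 3 allow. Among the 11121 genes that averaged 1 FPKM or more, the fold change of DDIT4 ranked 7 from the highest. Among the 39 genes its level per transcript length ranked 5 in WT, where SHMT2 (93.2 to 106 FPKM), PSAT1 (98.6 to 107 FPKM), SLC1A5 (95.1 to 109 FPKM) and SLC3A2 (100.1 to 128 FPKM) overlapped it, and 1 in knockout, where EIF4EBP1 came next at 207 to 214 FPKM. Its log2 fold change was between 1.37 with GC correction and 1.61 with median scaling over all settings, and 1.52 without WT replicate 3. The DDIT4 promoter, shown as the regulatory start of the gene with the largest change, held none of the motifs searched above, and its capital marks the gene start.
DDIT4, chr10:72273674-72273973, plus strand: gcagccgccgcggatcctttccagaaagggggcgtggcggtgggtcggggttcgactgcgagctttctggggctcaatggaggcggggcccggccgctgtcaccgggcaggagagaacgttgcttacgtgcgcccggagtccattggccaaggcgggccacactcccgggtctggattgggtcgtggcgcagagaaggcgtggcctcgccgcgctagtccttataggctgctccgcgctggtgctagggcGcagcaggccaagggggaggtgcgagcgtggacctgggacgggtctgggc

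**Figure D2:**
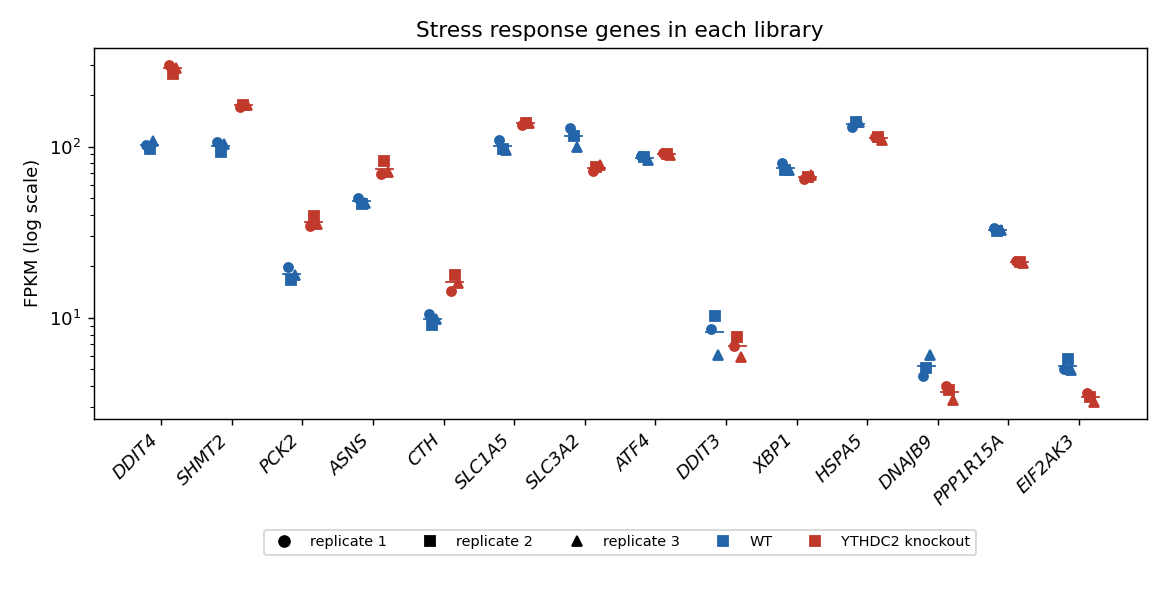
FPKM on a log axis in each library of 14 of the genes, WT in blue and YTHDC2 knockout in red, with symbols for replicates 1 to 3 and a short line at each group mean. The 3 DDIT4 knockout values lie between 266 and 301 FPKM above WT values of 96.5 to 108 FPKM, while the DDIT3 values of both groups overlap between 5.93 and 10.2 FPKM.

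The amino acid genes of the ATF4 program were mostly higher in knockout on the side of synthesis. Of 10 enzymes of amino acid and one-carbon metabolism, 7 were higher (PCK2, SHMT2, CTH, CBS, ASNS, PHGDH and MTHFD2), none was lower and 3 did not pass (PSPH, PSAT1 and ALDH1L2). Over all genes tested, 16.6% were higher and 26.2% were lower, and the median log2 fold change was -0.09, beside 0.51 for the enzymes. The number of enzymes higher was 5 with a common total and 6 by limma voom. It was 8 with quantile normalization and 9 with median scaling, and none was lower under these settings. All 10 log2 fold changes were above 0 by limma, from 0.05 to 1.00, and by limma voom, from 0.06 to 1.00. PCK2, the mitochondrial phosphoenolpyruvate carboxykinase, measured 34.3, 39.2 and 35.2 FPKM in knockout and 19.7, 16.7 and 17.9 FPKM in WT. These groups did not overlap, with a ratio of means of 2.00 and a log2 fold change of 1.00 (SE 0.077, limma FDR-adjusted p = 4.78e-05). To 3 decimals the log2 fold change of PCK2 was 0.996, just under the call threshold. SHMT2, the mitochondrial serine hydroxymethyltransferase that passes carbon from serine to folate, measured 170.4, 175 and 176 FPKM in knockout and 106, 93.2 and 103 FPKM in WT. Each knockout library was thus above each WT library, with a log2 fold change of 0.79 (SE 0.054, limma FDR-adjusted p = 3.07e-05). CTH, which releases cysteine from cystathionine, measured 14.4, 17.9 and 16.0 FPKM in knockout and 10.5, 9.11 and 9.81 FPKM in WT. The groups did not overlap here either (log2 fold change 0.71, SE 0.090, limma FDR-adjusted p = 4.30e-04).

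ASNS, the asparagine synthetase and a much-used readout of ATF4, was added after its values were seen. It measured 69.4, 82.4 and 71.6 FPKM in knockout and 50.4, 46.3 and 47.0 FPKM in WT, a log2 fold change of 0.63 (limma FDR-adjusted p = 2.11e-04). Of the enzymes that make serine, PHGDH, which takes the first step, was higher (log2 fold change 0.39, limma FDR-adjusted p = 7.15e-04). PSAT1 and PSPH, which take the later steps, had log2 fold changes of 0.07 and 0.21 (limma FDR-adjusted p = 0.380 and 0.0607). Of the mitochondrial folate enzymes beside SHMT2, MTHFD2 was higher by a log2 fold change of 0.17 (limma FDR-adjusted p = 0.0257, and 0.44 after GC correction), and ALDH1L2 averaged 3.82 and 3.67 FPKM in knockout and WT. CBS, which forms cystathionine, had its highest value in knockout replicate 3, at 19.0 FPKM, beside 10.7 and 9.58 FPKM in the other knockout libraries and 7.21 to 8.82 FPKM in WT (log2 fold change 0.65, limma FDR-adjusted p = 0.0391). CBS did not pass without WT replicate 1, 2 or 3 (limma FDR-adjusted p = 0.0617 to 0.159). Nor did it pass by limma voom (FDR-adjusted p = 0.192), after GC correction, with a common total, with no filter, with a mean of at least 1 FPKM or with a pseudocount of 1. It passed in 7 of the 16 alternatives, and CBSL, a near-identical copy, makes its counts uncertain. MTHFD2 did not pass without WT replicate 2 or knockout replicate 1 or 2 (limma FDR-adjusted p = 0.0594 to 0.104).

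Amino acid import did not move in 1 direction. Of 6 transporters, SLC1A5 and SLC7A1 were higher, SLC3A2 was lower and SLC7A5, SLC7A11 and SLC38A2 did not pass, with a median log2 fold change of 0.06 (-0.01 with FPKM rescaled to a common total). SLC3A2, the heavy chain that carries SLC7A5 and SLC7A11 to the cell surface, measured 72.3, 75.8 and 78.4 FPKM in knockout and 128, 116 and 100.1 FPKM in WT. All knockout libraries were below all WT libraries, and WT was the more spread group (log2 fold change -0.60, SE 0.082, limma FDR-adjusted p = 6.22e-04). Its light chains did not pass the test. SLC7A5, the leucine carrier, had a log2 fold change of 0.12 (95% interval -0.01 to 0.24), and it passed without WT replicate 1 (limma FDR-adjusted p = 0.0345). SLC7A11, the cystine carrier, averaged 1.65 FPKM in both groups (95% interval of the log2 fold change -0.31 to 0.30). SLC1A5, the glutamine carrier ASCT2, measured 134, 138 and 137 FPKM in knockout and 109, 97.4 and 95.1 FPKM in WT, with no overlap (log2 fold change 0.45, SE 0.056, limma FDR-adjusted p = 3.85e-04). After GC correction the log2 fold change of SLC1A5 was 0.27 (limma FDR-adjusted p = 0.00128). SLC7A1, the carrier of arginine and lysine, measured 38.5, 38.0 and 35.6 FPKM in knockout and 33.6, 32.8 and 34.6 FPKM in WT, a narrow gap (log2 fold change 0.15, limma FDR-adjusted p = 0.0437). SLC7A1 did not pass without WT replicate 2 or 3 or knockout replicate 1 or 2 (limma FDR-adjusted p = 0.0531 to 0.161). The enzymes and transporters together made 16 genes, of which 9 were higher (56.2%) and 1 was lower (6.25%), with a median log2 fold change of 0.19. Over all genes tested these shares were 16.6% and 26.2%, and the median was -0.09.

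Of the 8 transcription factors of the response, ATF3 was higher, CEBPG, NUPR1 and XBP1 were lower and 4 did not pass, ATF4 and DDIT3 among them. That is 12.5% higher and 37.5% lower, against 16.6% and 26.2% of all genes tested. ATF4 measured 91.4, 90.1 and 89.4 FPKM in knockout and 87.8, 86.6 and 83.5 FPKM in WT. The groups did not overlap, but the log2 fold change of 0.07 did not pass (95% interval -0.02 to 0.17, limma FDR-adjusted p = 0.211), and it was -0.01 after GC correction and 0.20 with median scaling (limma FDR-adjusted p = 0.0345). The length behind the FPKM of ATF4 was 3.86 times that of its longest GENCODE transcript, beside a median of 1.04 over all genes, so its level against other genes is uncertain. DDIT3 (CHOP), the factor of prolonged stress, measured 6.89, 7.77 and 5.93 FPKM in knockout and 8.63, 10.2 and 6.09 FPKM in WT, and the groups overlapped (log2 fold change -0.25, 95% interval -0.64 to 0.15, limma FDR-adjusted p = 0.288). The log2 fold change of DDIT3 was -0.45 without WT replicate 3, its lowest WT library (limma FDR-adjusted p = 0.0281), and -0.09 without WT replicate 2, its highest (limma FDR-adjusted p = 0.721). DDIT3 overlaps MARS1 on the opposite strand, and the strand setting of the counting is not given in the sources used here.

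XBP1, the factor that IRE1 activates by splicing, measured 64.4, 66.7 and 68.2 FPKM in knockout and 79.8, 73.3 and 73.2 FPKM in WT. The groups did not overlap (log2 fold change -0.18, SE 0.051, limma FDR-adjusted p = 0.0192), but the sign turned after GC correction (0.08, limma FDR-adjusted p = 0.416), and with median scaling it was -0.05 (limma FDR-adjusted p = 0.626). NUPR1, a small nuclear protein of the stress response, was near 1 FPKM, at 0.744, 1.00 and 0.771 FPKM in knockout and 1.46, 1.25 and 1.01 FPKM in WT (log2 fold change -0.51, limma FDR-adjusted p = 0.0442). CEBPG, a partner of ATF4 in its dimers, measured 12.4, 13.9 and 11.4 FPKM in knockout and 13.7, 17.5 and 15.5 FPKM in WT, with overlap between knockout replicate 2 and WT replicate 1 (log2 fold change -0.31, limma FDR-adjusted p = 0.0392). ATF5, another translationally controlled factor, measured 3.38, 3.18 and 4.27 FPKM in knockout and 4.50, 4.73 and 4.01 FPKM in WT, and the groups overlapped (log2 fold change -0.29, limma FDR-adjusted p = 0.0908). ATF3 was higher by a log2 fold change of 0.23 (limma FDR-adjusted p = 0.0226) and CEBPB had one of 0.14 (limma FDR-adjusted p = 0.143). The median log2 fold change of the 8 factors was -0.21. The split was 3 higher and 0 lower with median scaling, 0 higher and 4 lower with a common total, and 1 each after GC correction. ATF3 did not pass without WT replicate 2 or any 1 of the knockout replicates (limma FDR-adjusted p = 0.0505 to 0.0775). CEBPG did not pass without WT replicate 2 or 3 or knockout replicate 1 or 3 (limma FDR-adjusted p = 0.0902 to 0.143). NUPR1 did not pass without WT replicate 1 or 2 or knockout replicate 1 or 3 (limma FDR-adjusted p = 0.106 to 0.139). XBP1 did not pass without knockout replicate 1 or 2 (limma FDR-adjusted p = 0.0517 to 0.0862). ATF5 passed without knockout replicate 3 (limma FDR-adjusted p = 0.0279) and CEBPB without WT replicate 1 (limma FDR-adjusted p = 0.0297).

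The ER chaperone genes were mixed, with the main chaperone lower. HSPA5, which encodes BiP, the Hsp70 chaperone of the ER and the usual readout of the unfolded protein response, measured 114, 114 and 109 FPKM in knockout and 131, 139 and 139 FPKM in WT. All knockout libraries were below all WT libraries (log2 fold change -0.28, SE 0.045, limma FDR-adjusted p = 0.00127). The log2 fold change of HSPA5 was -0.13 after GC correction (limma FDR-adjusted p = 0.0173), and with median scaling it did not pass (-0.15, limma FDR-adjusted p = 0.0570). DNAJB9 (ERdj4), a co-chaperone of BiP, measured 4.02, 3.80 and 3.32 FPKM in knockout and 4.55, 5.07 and 6.08 FPKM in WT, without overlap (log2 fold change -0.48, SE 0.12, limma FDR-adjusted p = 0.0125). DNAJB9 did not pass after GC correction (-0.19, limma FDR-adjusted p = 0.177) or without knockout replicate 3 (-0.40, limma FDR-adjusted p = 0.0533). HERPUD1, a membrane protein of ER-associated degradation, went the other way, at 19.3, 20.4 and 19.2 FPKM in knockout and 16.6, 16.5 and 14.4 FPKM in WT (log2 fold change 0.31, SE 0.070, limma FDR-adjusted p = 0.00654). SDF2L1, a component of ER chaperone complexes, had a log2 fold change of 0.10 (95% interval -0.05 to 0.26), which turned to -0.18 after GC correction (limma FDR-adjusted p = 0.0221), and it passed as higher without WT replicate 1 (0.17, limma FDR-adjusted p = 0.0197). Of these 4 genes 1 was higher and 2 were lower, with a median log2 fold change of -0.09 (0.04 with median scaling). Over all genes tested, 16.6% were higher and 26.2% were lower, with a median of -0.09.

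Both eIF2α kinases of the set were lower, as were 26.2% of all genes tested. EIF2AK3 (PERK), which senses ER stress, measured 3.64, 3.46 and 3.24 FPKM in knockout and 5.04, 5.75 and 4.97 FPKM in WT (log2 fold change -0.59, SE 0.095, limma FDR-adjusted p = 0.00125). EIF2AK4 (GCN2), which senses uncharged tRNA, measured 15.1, 14.6 and 14.1 FPKM in knockout and 18.0, 19.5 and 19.7 FPKM in WT (log2 fold change -0.38, SE 0.061, limma FDR-adjusted p = 0.00132). Neither pair of groups overlapped, and both genes were lower under every setting, at -0.41 and -0.26 after GC correction.

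Of 8 other stress effectors, 4 were higher (EIF4EBP1, VLDLR, STC2 and TRIB3), 2 were lower (PPP1R15A and XPOT) and 2 did not pass (CHAC1 and SESN2), with a median log2 fold change of 0.20 (0.03 after GC correction). The shares of all genes tested were 16.6% higher and 26.2% lower, with a median of -0.09. PPP1R15A (GADD34), which brings a phosphatase to eIF2α and so closes the response, measured 21.4, 21.1 and 20.8 FPKM in knockout and 33.3, 32.2 and 32.8 FPKM in WT. The SDs of 0.281 and 0.561 FPKM were small beside the gap between the groups (log2 fold change -0.63, SE 0.048, limma FDR-adjusted p = 4.65e-05). EIF4EBP1 (4E-BP1), the translation repressor downstream of mTORC1, measured 209, 207 and 214 FPKM in knockout and 157, 144 and 139 FPKM in WT, again without overlap (log2 fold change 0.52, SE 0.050, limma FDR-adjusted p = 1.24e-04). After GC correction the log2 fold change of EIF4EBP1 was 0.24 (limma FDR-adjusted p = 0.00173). VLDLR, a lipoprotein receptor, was low, at 1.94, 2.08 and 1.97 FPKM in knockout and 1.57, 1.44 and 1.23 FPKM in WT (log2 fold change 0.48, limma FDR-adjusted p = 0.0141, 0.0504 without knockout replicate 2).

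STC2, a secreted glycoprotein, was higher by a log2 fold change of 0.47 (limma FDR-adjusted p = 2.51e-04), with WT values from 18.0 to 18.1 FPKM and knockout values from 24.5 to 26.3 FPKM. TRIB3, a pseudokinase that dampens ATF4, had a log2 fold change of 0.24 (limma FDR-adjusted p = 0.0292), which was 0.07 after GC correction (limma FDR-adjusted p = 0.383). TRIB3 did not pass without WT replicate 2 or 3 or any 1 of the knockout replicates (limma FDR-adjusted p = 0.0649 to 0.101). XPOT, which exports tRNA from the nucleus, was lower (log2 fold change -0.30, limma FDR-adjusted p = 0.00536), and this was -0.02 after GC correction (limma FDR-adjusted p = 0.725). CHAC1, which degrades glutathione, averaged 1.02 and 0.909 FPKM in knockout and WT, with the fewest fragments of the set. SESN2, another inhibitor of mTORC1, had a log2 fold change of -0.19 (limma FDR-adjusted p = 0.0807, 0.0460 without WT replicate 3, and 0.0382 by limma voom).

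**Figure D3:**
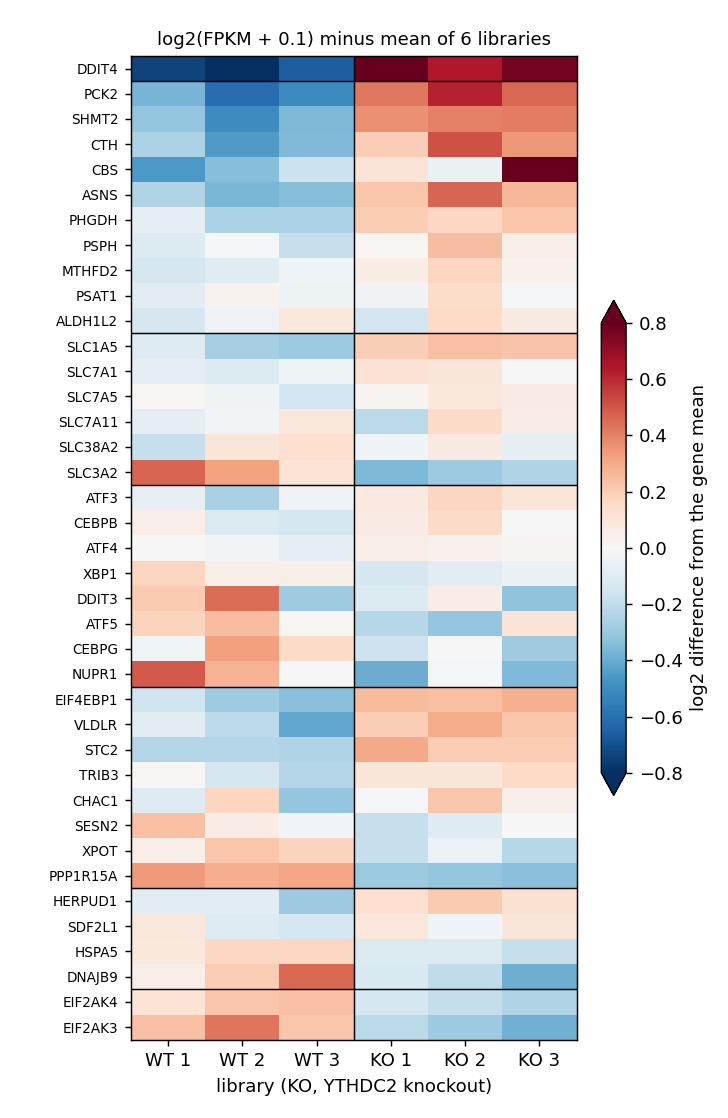
Log2(FPKM + 0.1) of each of the 39 genes in each library, less the mean of the gene over the 6 libraries, with the same order of roles as in the plot of fold changes. Red is above and blue below the mean, and values beyond 0.8 take the end color. DDIT4, the upper enzymes, PPP1R15A and both kinases differ between the groups in all libraries, and CBS stands out in knockout replicate 3.

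Fold changes moved with the base composition of the transcripts, which bears on the genes with small changes. Over all genes tested, the median log2 fold change went from -0.35 in the lowest GC decile to 0.25 in the highest. ATF4, at 56.7% GC, had a log2 fold change of 0.07, and the median of its decile was 0.08. XPOT (40.8% GC) and XBP1 (41.5% GC), at -0.30 and -0.18, lay in deciles with medians of -0.30 and -0.25. DDIT4 (58.1% GC), CTH (43.3% GC) and ASNS (47.0% GC) were above the median of their deciles, and PPP1R15A (58.8% GC) and SLC3A2 (57.4% GC) were below it. After each library was corrected for GC content, 19 of the 39 genes were higher and 8 were lower. CEBPG, NUPR1, XBP1, CBS, TRIB3, XPOT and DNAJB9 then did not pass. Instead PSAT1 (0.31), PSPH (0.27), ALDH1L2 (0.30), SLC7A11 (0.35) and SLC38A2 (0.30) passed as higher, and ATF5 (-0.43), SESN2 (-0.32) and SDF2L1 (-0.18) as lower. With this correction 9 of the 10 enzymes were higher and none was lower, and the median over all genes was -0.01. The shares of all genes given throughout come from the fit without correction or rescaling. Counts under other settings thus have no matching share beside them.

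**Figure D4:**
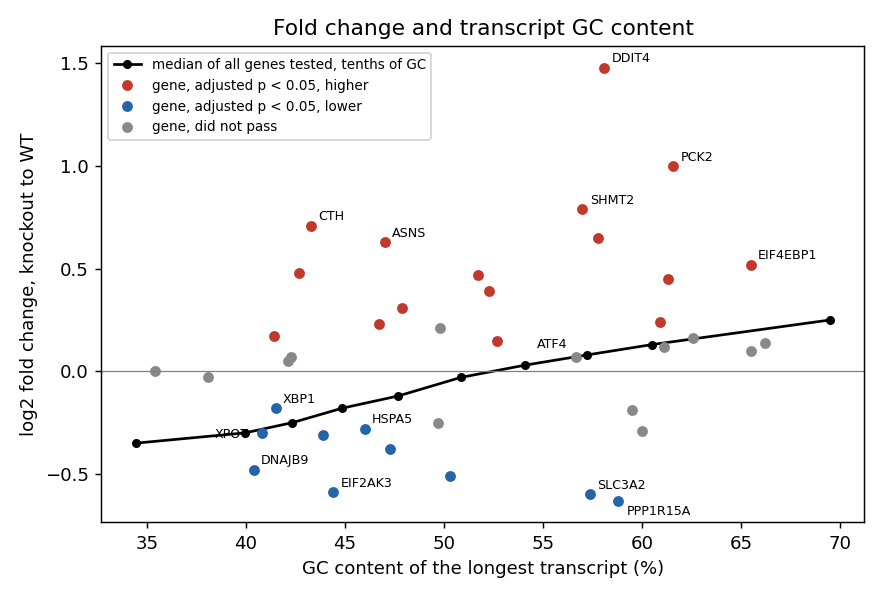
Log2 fold change, YTHDC2 knockout to WT, of the 39 genes against the GC percent of the longest GENCODE transcript, red for higher and blue for lower at an adjusted p under 0.05. The black line joins the medians of all genes tested in deciles of GC content, from -0.35 to 0.25, with ATF4 next to it and DDIT4 at 1.48 far above.

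Other genes of the same pathways were taken from 7 lists with 108 genes, also chosen with earlier results of these data known. Of these, 3 were called higher and 2 called lower, against 0.732% and 1.99% of all genes. The median log2 fold change was -0.03, beside -0.09 over all genes tested. At a limma FDR-adjusted p under 0.05, 29 were higher (26.9%) and 30 were lower (27.8%), against 16.6% and 26.2% of all genes tested. The split was 37 higher and 16 lower with median scaling, 19 and 40 with a common total, and 34 and 17 after GC correction. Of 18 other amino acid and ATF4 target genes, 7 were higher (38.9%) and 2 were lower (11.1%), with a median log2 fold change of 0.15. Their split was 5 and 2 with a common total, 7 and 1 with median scaling, and 9 and 1 after GC correction. PYCR1, which makes proline, was higher (145 and 79.1 FPKM in knockout and WT, log2 fold change 0.88, limma FDR-adjusted p = 1.90e-05). ADM2, a peptide hormone, was called higher but stayed under 1 FPKM (0.473 and 0.162 FPKM, log2 fold change 1.09, limma FDR-adjusted p = 0.00924), and its log2 fold change was 0.97 without WT replicate 3, 0.87 without knockout replicate 1 and 0.86 after GC correction. GDF15, a stress hormone that p53 also controls, was called lower (3.18 to 3.58 FPKM in knockout and 7.98 to 14.0 FPKM in WT, log2 fold change -1.65, limma FDR-adjusted p = 1.71e-04).

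Beside the next lists, 16.6% of all genes tested were higher and 26.2% were lower, with a median of -0.09. Of 20 cytosolic aminoacyl-tRNA synthetases, which charge tRNA with amino acids, 5 were higher (25.0%) and 7 were lower (35.0%). Their median was -0.02 (0.11 with median scaling, 0.06 after GC correction). The split was 6 higher and 4 lower with median scaling, 5 and 10 with a common total, and 7 and 5 after GC correction. QARS1 and VARS1 were higher (log2 fold change 0.73 and 0.51, or 0.68 and 0.30 after GC correction) and RARS1 was lower (-0.75, or -0.48). Of 23 other ER chaperone and degradation genes, 2 were higher (8.70%) and 9 were lower (39.1%). Their median was -0.16, which was below 0 under each scaling and -0.07 after GC correction. DNAJB11 (-0.70) and DNAJC3 (-0.65), both co-chaperones of BiP, were lower (-0.37 and -0.35 after GC correction) and DERL3 (0.88), of ER-associated degradation, was higher. The split of this list was 4 higher and 5 lower with median scaling and 1 higher and 13 lower with a common total. Of 16 genes of eIF2, eIF2B and the stress sensors, 4 were higher (25.0%) and 6 were lower (37.5%), with a median of -0.08 (0.05 with median scaling, 0.04 after GC correction). This split was 6 and 3 with median scaling, 1 and 8 with a common total, and 5 and 1 after GC correction. EIF2AK2 (PKR), the eIF2α kinase that double-stranded RNA activates and interferon induces, was called lower (log2 fold change -1.66, limma FDR-adjusted p = 3.83e-04), and WT replicate 3 held its highest value, at 28.8 FPKM, beside 14.2 and 18.2 FPKM in the other WT libraries (-1.38 without it). EIF2S1, which encodes eIF2α (-0.44), and MBTPS2, a protease that releases ATF6 (-0.46), were lower and did not pass after GC correction (-0.12 and -0.11).

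**Figure D5:**
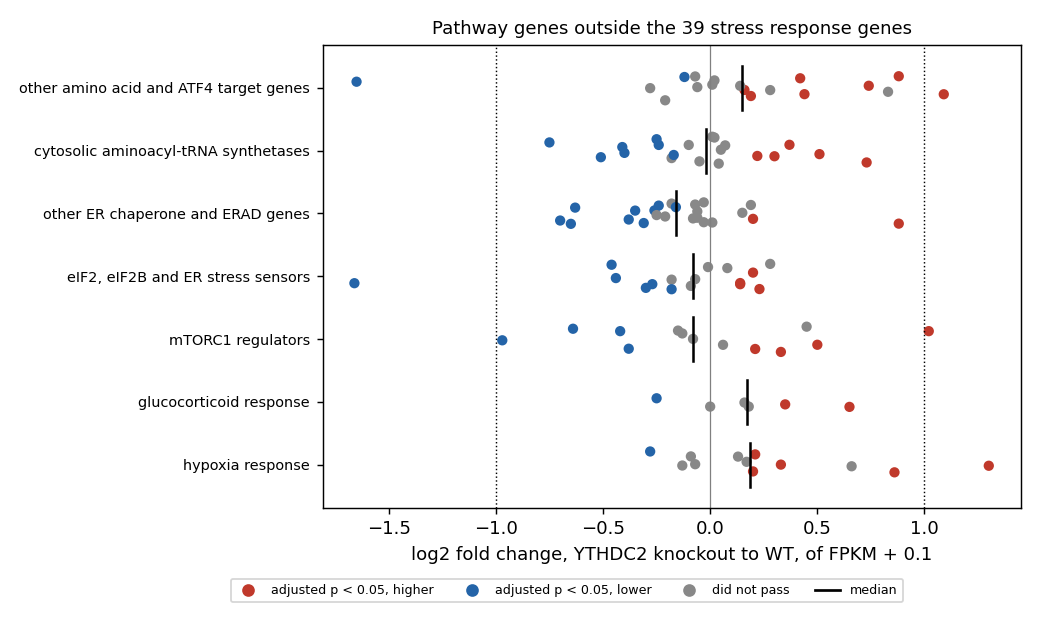
Log2 fold change, YTHDC2 knockout to WT, of the 108 pathway genes outside the 39, 1 point per gene with a random vertical offset in each list. Red and blue mark an adjusted p under 0.05, higher and lower, black ticks are list medians, from -0.16 for ER chaperone genes to 0.19 for hypoxia genes, and dotted lines are -1 and 1.

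DDIT4 belongs with the regulators of mTORC1 and responds to hypoxia and glucocorticoids, so these lists were set beside it. Of 13 other mTORC1 regulators, 4 were higher and 4 were lower (30.8% each), with a median log2 fold change of -0.08 (0.05 with median scaling). Over all genes tested, 16.6% were higher and 26.2% were lower, with a median of -0.09. DEPTOR, an inhibitor within the mTOR complexes, was called higher (4.44 and 2.17 FPKM in knockout and WT, log2 fold change 1.02, limma FDR-adjusted p = 0.00110), and its log2 fold change was 0.89, 0.98 and 0.96 without WT replicate 1, WT replicate 2 and knockout replicate 1. With a common total DEPTOR (0.96) was not called and SESN1 (-1.03) was called lower. The split of this list was 3 higher and 5 lower with a common total, 5 and 3 with median scaling, and 2 and 3 after GC correction. SESN1, which like SESN2 restrains mTORC1, was lower (-0.97, and -1.04 without WT replicate 3), as was TBC1D7 (-0.64), a TSC complex subunit that averaged 0.0865 and 0.194 FPKM. TBC1D7 did not pass without WT replicate 2 or any 1 of the knockout replicates (limma FDR-adjusted p = 0.0564 to 0.0993), or after GC correction (-0.36). Of 6 genes of the glucocorticoid response, TSC22D3 (0.65) and PER1 (0.35) were higher, and FKBP5 was lower (-0.25, which turned to 0.01 after GC correction). PER1 did not pass after GC correction (0.14, limma FDR-adjusted p = 0.0934), which left 1 gene of this list higher and 0 lower. FKBP5 did not pass without WT replicate 2 or 3 or knockout replicate 1 or 2 (limma FDR-adjusted p = 0.0664 to 0.106). Of 12 genes of the hypoxia response, 5 were higher (41.7%) and 1 was lower (8.33%), with a median of 0.19 (0.12 with a common total). The split of the hypoxia list was 2 and 1 with a common total, and 6 and 0 both with median scaling and after GC correction. NDRG1 was called higher (37.7 and 15.4 FPKM, log2 fold change 1.30, limma FDR-adjusted p = 1.90e-05), ANKRD37 (0.86) and ADM (0.33) were higher, and VEGFA did not pass (-0.09, limma FDR-adjusted p = 0.446). ADM did not pass after GC correction (0.22, limma FDR-adjusted p = 0.0835), nor without WT replicate 2 or 3 or knockout replicate 1 or 3 (limma FDR-adjusted p = 0.0740 to 0.104).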

How the data were processed

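RNA of H1975 cells was sequenced in 3 YTHDC2 knockout and 3 WT libraries (TRIzol, VAHTS Universal V6 kit). The authors deposited FPKM values of 16760 genes, made with GRCh38.p13. Aligner, counter, annotation and strand setting were not given in the sources used here. Whole fragments were recovered from the FPKM steps for all 16760 genes, within 0.001 of a whole number. Libraries were grouped by genotype. Genes detected (above 0) in 3 or more of the 6 libraries, 15441 in all, were tested with limma 3.58.1 (R 4.3.3; trend and robust moderation) on log2(FPKM + 0.1), which understates the change of low genes, and p-values were adjusted by Benjamini-Hochberg (FDR) across every gene tested. A call needed an adjusted p under 0.05 with a fold change beyond 1 on the log2 scale in either direction, as in the study. The fit was run on simulated counts of independent genes without a GC trend, which does not measure its error rate in these data. Counting depth limits genes with few fragments.

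The 39 genes and all lists were chosen with earlier results of these data known. Named with values per library are ATF4, DDIT3, DDIT4, HSPA5, XBP1, called genes and the 3 genes of each role with the largest absolute fold change; from other lists, up to 3 that passed. ASNS, CBS and other members' values were added after they were seen. GC content and positions came from GENCODE (GRCh38), and promoters from RefSeq (GRCh38.p14), which held 33 of the 39 genes; 8 of the 39 overlap a coding gene on the opposite strand. Alternatives were pseudocounts of 0.01 and 1, no filter, a mean of at least 1 FPKM, median scaling, quantile normalization, a common total, GC correction (lowess, span 0.3), limma voom on recovered fragments, a replicate block, and leaving out each library. Tables and the permutation test used Python 3.11.15 with pandas 2.3.3 and scipy 1.17.1.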

Additional observations from a re-analysis of the deposited data

How the results depend on the processing

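DDIT4 was called higher under all 16 alternatives, with log2 fold changes from 1.37 to 1.61. With median scaling, quantile normalization, a pseudocount of 0.01 or limma voom, 2 of the 39 genes were called higher, PCK2 joining DDIT4, as also without WT replicate 1 or knockout replicate 1 or 3. With median scaling 6 of the 39 were lower at an adjusted p alone, 3 transcription factors were higher and 0 lower, and of the 108 other pathway genes 5 were called higher and 16 were lower at an adjusted p alone. With a common total, 19 of those 108, 1 transporter and 0 transcription factors were higher. With GC correction, 17 of the 108 were lower, 4 transporters were higher and 1 transcription factor was lower. With no filter or quantile normalization 1 transcription factor was lower, and with a pseudocount of 1 the number of the 108 called higher was 1. The signs of ATF4 (-0.01), XBP1 (0.08) and FKBP5 (0.01) turned with GC correction. The cause of these changes was not tested.

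Leaving out each library in turn gave 1 to 2 of the 39 genes called higher, 11 to 18 higher and 7 to 11 lower at an adjusted p alone. By role it gave 5 to 7 enzymes higher, 1 to 3 transporters higher, 0 to 2 transcription factors higher and 0 to 3 lower, 2 to 4 other effectors higher and 2 to 3 lower, and, of the chaperones and kinases, 1 to 2 higher and 3 to 4 lower. Of the 108 other genes, 1 to 3 were called higher and 2 to 3 lower, and 21 to 29 were higher and 24 to 34 lower at an adjusted p alone. Without knockout replicate 1, 1 of the 108 was called higher. The YTHDC2 log2 fold change ranged from -2.81 to -0.84, and it passed only without WT replicate 3 (-0.84, limma FDR-adjusted p = 0.00223).

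Knockout and WT libraries share replicate numbers, but the deviations of same-numbered libraries correlated at 0.212, 0.125 and -0.058, and knockout replicate 2 correlated best with WT replicate 3 (0.173) and knockout replicate 3 with WT replicate 1 (0.076), so the numbers were not taken as pairs. With a replicate block, 1 transporter was higher in place of 2 (SLC7A1, limma FDR-adjusted p = 0.0645), DDIT3 passed as lower (-0.25, limma FDR-adjusted p = 0.0480) and PSPH as higher (limma FDR-adjusted p = 0.0302). No other gene of the 39 changed in whether it passed.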
